A study of Mus musculus with 8 samples.

Results

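The extracellular matrix genes described here encode 10 components of elastic fibres and microfibrils: the fibrillins *Fbn1* and *Fbn2*, the microfibril-associated genes *Mfap2*, *Mfap5* and *Mfap4*, elastin (*Eln*), the fibulins *Fbln1*, *Fbln2* and *Fbln5*, and *Emilin1*. They were taken by symbol, and all 10 were found among the 28001 features of the deposited matrices. Their unique molecular identifier (UMI) counts were followed in all 8 single-cell RNA-seq libraries of mouse forelimb, in cells with at least 3000 UMIs and at most 10% mitochondrial UMIs, by stage, limb segment and cell class.

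Microfibrils are extracellular filaments built mainly of fibrillins. They can stand alone, as in ligaments and in the attachments of the skin, or they can carry a core of cross-linked elastin, which gives skin, vessel walls and tendon sheaths their recoil. Microfibril-associated glycoproteins bind the fibrillin strands, fibulins and Emilin-1 sit at the border between microfibril and elastin, and lysyl oxidases cross-link the core. Microfibrils also hold latent TGF-beta complexes through the latent TGF-beta binding proteins.

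All embryos were C57BL/6J. Cells were *Hic1*-lineage cells of *Hic1* CreERT2/CreERT2 embryos carrying the *Rosa26* LSL tdTomato/tdTomato reporter, in which 7.5 mg of tamoxifen given at embryonic day 10 (E10) switched on tdTomato in cells then expressing *Hic1*. The 6 sorted libraries, 1 for each group, held tdTomato+ cells of whole forelimbs taken daily from E11.5 to E14.5, of the proximal forelimb at E16.5 (the elbow with the distal stylopod and proximal zeugopod) and of the distal forelimb at E16.5 (the distal zeugopod with the autopod). A further 2 libraries, labelled as replicates 1 and 2, held cells of whole E11.5 forelimbs with and without tdTomato. Forelimb pairs were pooled, and cells with blood or endothelial surface markers were removed by the sort. Each sorted group was therefore 1 pool and 1 library, and no comparison between stages or segments had a replicate check.

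The filters kept 53085 of 57469 barcodes, and pairs of libraries shared between 0 and 48 barcodes. Median depth was 6788 to 8992 UMIs per cell in the 3 earliest sorted libraries, 8595 and 8855 in the whole limb libraries and 14296 to 17912 from E14.5 on, outside epithelial-like clusters. The kit changed from v2 to v3 between E13.5 and E14.5, and the dissociation enzymes changed between E12.5 and E13.5, so the kit and the enzymes cannot be told apart from the stage at those steps. tdTomato itself ranged from 427 to 1341 CPM (UMIs for a gene per 1e6 UMIs of the library) among sorted libraries, while both whole limb libraries were low, with 3.88 and 4.21 CPM, and the limb mesenchyme gene *Prrx1* was present in all 8. Epithelial-like clusters, which hold keratin genes, made up 8.48% of cells in the proximal and 0.793% in the distal E16.5 library and 0.835% at E14.5, and they were left out of the levels below unless stated.

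The first question was how the genes differed between the earliest and the latest proximal cells. Between sorted E11.5 and E16.5 proximal cells, 9 of the 10 genes were at least 2-fold higher at E16.5 and none was 2-fold lower. Of 12878 genes with a mean of at least 1 CPM, 15.3% were at least 2-fold higher and 28.8% at least 2-fold lower. The median log2 ratio of the 10 genes was 1.94 and that of all genes −0.44. The exception was *Fbln1*, and *Mfap4* was just past the line at 2.01. This comparison sets whole forelimbs against 1 segment. It also spans the change of enzymes and that of the kit, which cannot be told apart from the stage. In the distal segment 7 of the 10 were at least 2-fold above E11.5, against 17.8% of all genes, and none was 2-fold lower, against 26.5%. *Mfap4* (1.92) and *Emilin1* (1.81) were under the line there. Scaling by trimmed mean of M values (TMM) raised every log2 ratio of this comparison by 0.40 and also gave a count of 9. With epithelial-like cells kept, the count was 6: *Fbn2* stood at 1.96-fold, *Emilin1* at 1.92-fold and *Mfap4* at 1.73-fold. UMIs were read at transcript 3′ ends and were not scaled by length, so levels are compared between libraries and cells, not between genes. Ratios are given with exact 95% counting intervals, which cover counting error only.

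*Fbn1*, which encodes the main fibrillin of postnatal microfibrils, had levels of 11.7, 19.5, 22.5 and 59.9 CPM in the daily libraries from E11.5 to E14.5, and of 270.3 CPM in proximal and 362 CPM in distal E16.5 cells. Whole limb libraries held 8.11 and 9.49 CPM. Both E16.5 libraries were far above the rest, and the ratio of E16.5 proximal to E11.5 was 23.0 (20.8 to 25.6). *Fbn2*, the fibrillin long known from embryonic tissues, had 170.3, 248, 265 and 372 CPM over the same stages, 389 CPM in proximal and 696 CPM in distal E16.5 cells, and 117 and 133 CPM in whole limbs. Its ratio of E16.5 proximal to E11.5 was 2.28 (2.22 to 2.35), and its distal level stood apart from all others.

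Among the microfibril-associated genes, *Mfap5* had the widest range of the 10. It was close to the limit of counting at E11.5 with 10 UMIs (0.317 CPM, Poisson 95% interval 0.152 to 0.584) and held 8 and 5 UMIs in the whole limb libraries. On the following 3 days it had 1.97, 4.32 and 38.8 CPM, and E16.5 cells had 475 CPM proximally and 325 CPM distally. The resulting ratio of 1498 has an interval of 814 to 3123, set by the 10 UMIs of the earlier library. *Mfap2*, which encodes the related glycoprotein MAGP-1, had 374, 677, 900.4, 999.9 and 1041 CPM along the stages up to E16.5 proximal cells and 909 CPM in distal cells (324 and 359 CPM in whole limbs). Most of its difference lay between E11.5 and E13.5. *Mfap4*, a fibrinogen-domain protein that binds elastin and fibrillin, was highest at E14.5, with 313, 519, 683, 826 and 629 CPM along the same stages, 602 CPM in distal cells and 145 and 139 CPM in whole limbs.

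*Eln*, the elastin gene itself, had 5.75, 14.9, 36.5, 126 and 199 CPM along the stages up to E16.5 proximal cells, 298 CPM in distal cells and 3.58 and 3.83 CPM in whole limbs. Each sorted library was above every earlier one, and the ratio of E16.5 proximal to E11.5 was 34.7 (29.97 to 40.4). *Emilin1*, whose product lies between elastin and microfibrils, was highest at E13.5, with 73.2, 134, 192, 145 and 164 CPM along those stages, 132 CPM in distal cells and 61.7 and 66.9 CPM in whole limbs.

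The 3 fibulins differed from one another. *Fbln5*, which is needed for elastic fibre assembly, had 28.1, 45.6, 55.6, 135 and 148 CPM up to E16.5 proximal cells, and *Fbln2*, a fibulin of basement membranes and developing vessels, was at 24.3, 29.9, 46.4, 92.7 and 211 CPM. Their distal levels were 158 and 273 CPM, and whole limbs held 11.9 and 13.6 CPM of *Fbln5* and 37.0 and 40.5 CPM of *Fbln2*. The ratio of E16.5 proximal to E11.5 was 5.27 for *Fbln5* (4.93 to 5.64) and 8.71 for *Fbln2* (8.11 to 9.36). *Fbln1*, which binds fibronectin and elastin, had the smallest ratio of the 10. Its levels were 168, 199.5, 215, 294 and 219 CPM over the same stages, 234 CPM in distal cells and 166 and 169 CPM in whole limbs, and the ratio was 1.30 (1.26 to 1.34). Between the 2 whole limb libraries none of the 9 genes with a mean of at least 1 CPM was past 2-fold, and 0.167% of all genes were.

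**Figure D1:**
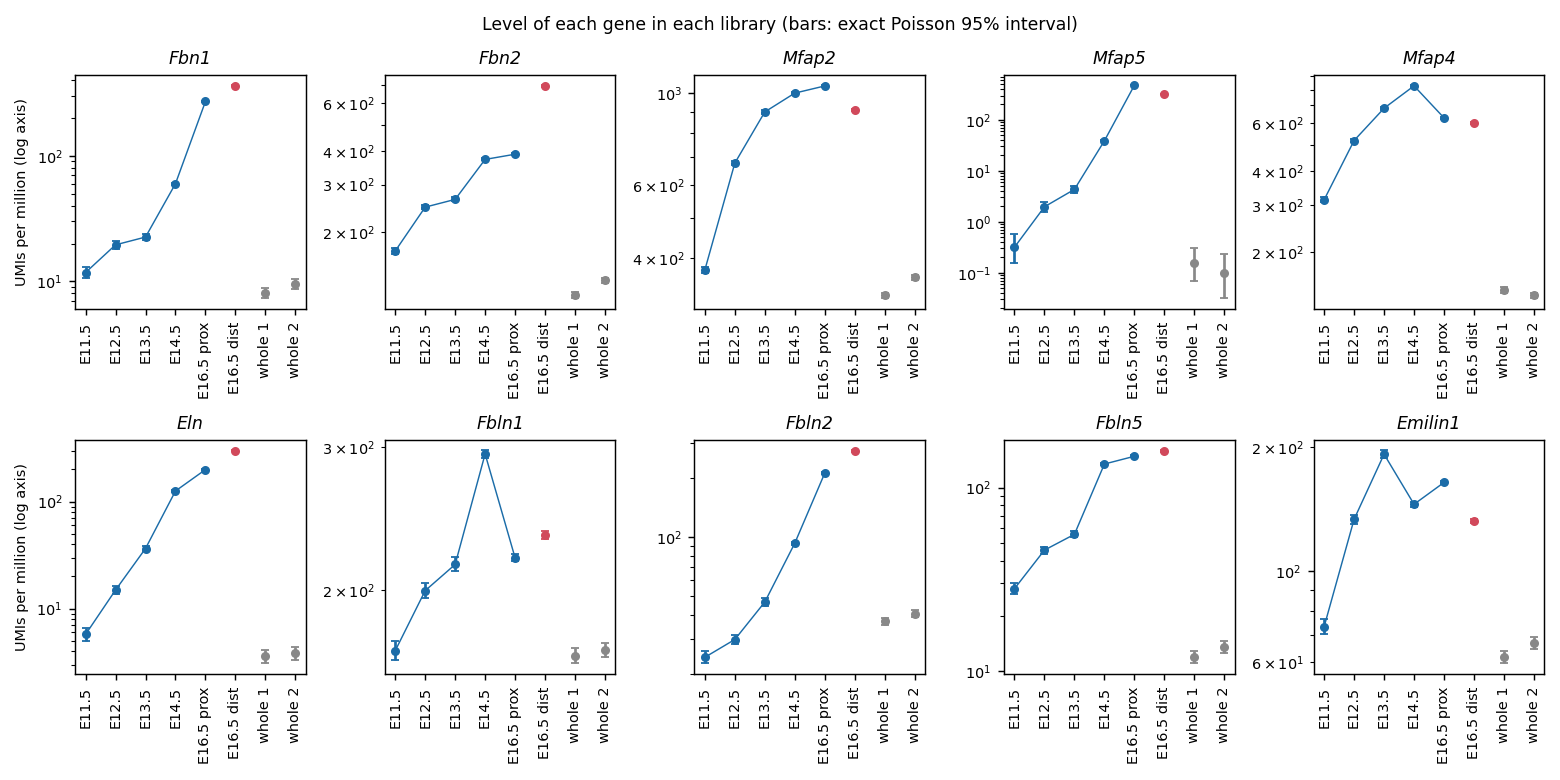
Level of each of the 10 genes in each library in CPM, on a log axis that differs between panels. Blue points joined by a line are sorted libraries from E11.5 to E16.5 proximal, red is E16.5 distal, grey are the whole limb libraries, and bars are exact Poisson 95% intervals. *Mfap5* covers the widest range, and *Fbln1* stays between 168 and 294 across the sorted libraries.

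Taken step by step, the differences fell at different times. From E11.5 to E12.5, 2 of 10 genes (*Mfap5* and *Eln*) were at least 2-fold higher, against 4.29% of all genes. *Mfap5* had 10 UMIs at E11.5 (0.317 CPM) and passed the filter of a mean of 1 CPM only through its E12.5 level of 1.97 CPM. From E12.5 to E13.5 the same pair was past 2-fold, against 4% of all genes, and with 1 CPM added to every level *Mfap5* was at 1.79-fold. From E13.5 to E14.5, 4 genes were past 2-fold, against 6.01%: *Mfap5* at 8.98 (7.78 to 10.4), *Eln* at 3.45 (3.28 to 3.63), *Fbn1* at 2.66 (2.49 to 2.84) and *Fbln5* at 2.42 (2.32 to 2.52). *Fbln2* stood just under the line at 2.00 (1.91 to 2.09), and at 2.28 under TMM scaling. From E14.5 to E16.5 proximal, 3 genes were past 2-fold, against 6.74%: *Mfap5* at 12.3 (11.9 to 12.6), *Fbn1* at 4.51 (4.41 to 4.62) and *Fbln2* at 2.28 (2.23 to 2.32). With epithelial-like cells kept *Fbln2* was at 1.98-fold, and the count was 2. E14.5 was again the whole forelimb. E16.5 distal cells had 4 genes at least 2-fold above E14.5, against 9.65% of all genes (8.57% were lower), namely *Mfap5* (8.38), *Fbn1* (6.04), *Fbln2* (2.95) and *Eln* (2.37, 2.33 to 2.41). None was 2-fold lower at any of the 4 steps up to E16.5 proximal, at which 2.12%, 2.27%, 7.82% and 8.61% of all genes were, in that order. *Mfap4*, *Fbln1* and *Emilin1* nonetheless had ratios below 1: 0.762 and 0.745 for the first pair from E14.5 to E16.5 proximal, and 0.755 for *Emilin1* from E13.5 to E14.5.

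The share of cells holding a UMI was compared after each cell was thinned to 3000 UMIs. *Mfap5* was found in 0.0632% of 3165 cells at E11.5, in 6.87% of E14.5 cells and in 39.5% of E16.5 proximal cells. *Eln* was found in 1.30% of cells at E11.5, 28.3% at E14.5, and 30.2% of proximal and 43.5% of distal E16.5 cells, and *Fbn1* in 3.79%, 15.8%, 37.3% and 46.4% at the same 4 points. *Mfap2* was already found in 65.9% of cells at E11.5. Shares and levels did not always move together: from E14.5 to E16.5 proximal the share of cells with *Fbn2* was 62.4% and 56.5% while its level was 372 and 389 CPM, and that of *Mfap4* from E13.5 to E14.5 was 79.9% and 77.5% while its level was 683 and 826 CPM. The median number of the 10 genes found per thinned cell was 2 at E11.5, 3 on the following pair of days, 4 at E14.5 and 5 in both E16.5 libraries, and cells with 5 or more of them made up 4.17% at E11.5 and 51.7% at E16.5 proximal. Before thinning, the E16.5 proximal share was 58.0% for *Mfap5*, 69.3% for *Eln* and 79.2% for *Fbn1*.

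Free RNA can place UMIs in cells that do not express a gene. The epithelial-like cells used as background came from a pair of clusters at each of E14.5 and E16.5. One of each pair was named from epithelial markers. The other (326 proximal cells at E16.5 and 31 cells at E14.5) had *Krt14*, *Krt5* and *Krt15* among its 10 leading genes. The perineurial list was nonetheless the one with the largest share of its markers raised, and this cluster stayed unnamed. In the 942 epithelial-like cells of the E16.5 proximal library (median depth 37428 UMIs before thinning, against 17912 in the other cells) the thinned shares were 6.26% for *Mfap5* (exact 95% interval 4.80 to 8.005), 3.82% for *Eln* and 4.14% for *Fbn1*. All 10 genes were found in a larger share of the other cells than of these. The nearest pair was *Fbln1*, with 20.3% in epithelial-like and 42.9% in other cells. Thinning keeps a smaller part of the UMIs of a deeper cell. Free RNA of equal amount per droplet would thus give the epithelial-like cells a lower share. The effect of this depth difference on the shares was not tested. At E14.5 there were 70 epithelial-like cells, and for 3 genes the interval of their share includes the share of the other cells: *Fbln1* (38.6%, 27.2 to 51.0, against 48.0%), *Mfap5* (5.71%, 1.58 to 13.99, against 6.87%) and *Fbn1* (7.14%, 2.36 to 15.9, against 15.8%). By share of these 3 genes, the other cells were not distinguishable from the epithelial-like cells at this number of cells. Whether epithelial-like cells express the genes themselves was not tested. By level, the 70 cells together had 19.2 CPM of *Fbn1* (Poisson 95% interval 13.03 to 27.2), 17.3 of *Mfap5* (11.5 to 25.03) and 158 of *Fbln1* (139.5 to 179), while the other cells had 59.9, 38.8 and 294 CPM. In the 31 cells of the unnamed cluster *Mfap5* was at 26.9 CPM (16.2 to 42.1), an interval that includes the level of the other cells.

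Reference promoter sequence, 250 bases before to 50 bases after a transcript start, was available from RefSeq (GRCm38.p6) for 6 of the 10 genes, in 9 windows. A GC box (GGGCGG or its reverse complement CCGCCC) lay in windows of 5 of these 6 genes (*Fbn1*, *Mfap2*, *Fbln1*, *Fbln2* and *Fbln5*). By window this is 5 of 9, and 35.7% of 32851 mouse promoter windows hold one. None of the 9 windows held TATAAA on either strand, against 13.6% of all windows. The E-box CACGTG was found only before *Fbln1*, and 7.15% of all windows hold it. The 30-base stretches below show a motif in the windows of *Fbn1* and *Fbln1*, which had the widest and the narrowest difference between E11.5 and E16.5 proximal among genes with a sequence, and of *Fbln2* and *Fbln5*, 2 fibulins between them, in 5′ to 3′ direction of the gene, with the motif in capitals. They lie at chr2:125506606-125506635 on the minus strand, chr6:91212734-91212763 on the plus strand, chr12:101819150-101819179 on the minus strand and chr15:85205856-85205885 on the plus strand.
Fbn1 GC box: aggcccgggtccGGGCGGtggctggcagag
Fbln2 GC box: gcaaaatcgaggccCCGCCCtgaggcggga
Fbln5 GC box: acgcgccccgctCCGCCCtggggaggccgg
Fbln1 E-box: ttagacacttttCACGTGactttctgcctg
These matches are letters in a window and no measure of binding. In GENCODE M21 (GRCm38) *Fbn1* itself spans chr2:125300594-125507993 on the minus strand, *Mfap5* chr6:122505845-122529290 on the plus strand and *Eln* chr5:134702593-134747323 on the minus strand.

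Cells were clustered at each stage without the 10 genes, and clusters were named from marker genes, so that the levels in a class could be compared. The names were rebuilt at each stage, and 41.0% to 45.3% of the cells outside epithelial-like clusters at E16.5 and 27.5% at E14.5 stayed unnamed. Fibroblast-like cells were led at E16.5 by *Ly6a* and *Dpp4* in one cluster and by *Pi16* in another, tenocyte-like cells by *Tnmd* and *Scx*, perichondrial-like cells by *Alpl* and *Runx2*, pericyte-like cells by *Rgs5* and *Acta2*, chondrocyte-like cells by *Matn1* and *Col2a1*, and dermal fibroblast-like cells by *Rspo1* and *Col7a1* in the largest cluster of the proximal library.

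From E14.5 to E16.5 proximal, *Mfap5* was at least 2-fold higher in each of the 6 classes compared, with ratios from 8.32 in chondrocyte-like to 19.4 in tenocyte-like cells. The level behind that highest ratio was low, from 2.00 to 38.9 CPM, whereas fibroblast-like cells had 122 and 2116 CPM, a ratio of 17.4 (16.7 to 18.1). The later levels of tenocyte-like and chondrocyte-like cells, 38.9 and 46.9 CPM, were close to the 38.9 CPM of the epithelial class in the same library, and with the highest doublet scores removed the tenocyte-like level was 17.1 CPM. Within the dermal class, which had 7.68 CPM at E14.5, the proximal cells of cluster 20 had 8.64 CPM of *Mfap5*, those of cluster 10 had 37.5 and those of cluster 13 had 345. The part of free RNA and of doublets in the low levels was not tested. *Fbn1* was past 2-fold in 4 of 6 classes, with 88.3 and 1276 CPM in fibroblast-like cells (14.5, 13.8 to 15.2), but a ratio of 1.64 (1.49 to 1.82) in tenocyte-like and 1.71 (1.54 to 1.89) in chondrocyte-like cells. These sizes depended on the clusters: at resolution 0.5 fibroblast-like cells had 80.9 and 644 CPM of *Fbn1* (7.96) and 166 and 1259 CPM of *Mfap5* (7.57). Fibroblast-like cells had 3 genes at least 2-fold higher (*Mfap5*, *Fbn1* and *Fbln2*, the last at 4.34) and 1 lower, *Fbln1*, which stood at 540.5 CPM in the earlier and 128 CPM in the later library (0.238, 0.226 to 0.2499). Of all genes in that class 10.1% were at least 2-fold higher and 18% lower. With other clusters *Mfap4* was also 2-fold lower in that class at resolution 2 (0.456), and *Eln* also 2-fold higher at resolution 0.5 (2.12).

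Perichondrial-like cells had the most genes past the line. In them 6 of 10 were at least 2-fold higher at E16.5 proximal, against 7.93% of all genes: *Mfap5*, *Eln* (191 and 669.6 CPM, ratio 3.50), *Fbln2* (3.03), *Fbn1* (2.99), *Fbln5* (2.51) and *Fbn2* (2.16, and 1.74 in thinned cells). In chondrocyte-like cells 3 genes were at least 2-fold lower, against 13.2% of all genes: *Fbln5* (0.320, 0.290 to 0.353), *Mfap4* (0.377) and *Fbln1* (0.458). There *Mfap5* alone of the 10 was 2-fold higher, against 7.58%. Tenocyte-like cells had 1 gene past 2-fold (6.46% of all genes higher) and dermal fibroblast-like cells 2 (6.46%), and mitotic-like cells, a mixture of cycling cells, also 2 (8.28%). Fibroblast-like cells were 15.9% of E14.5 cells and 5.75% of E16.5 proximal cells, where 27.5% and 45.3% of cells were unnamed. In all 4 classes shared by E13.5 and E14.5 *Emilin1* was lower at E14.5, with ratios of 0.669 to 0.726, as were 35.7% of 11769 genes in all 4, and 6 of the 10 genes were higher in all 4, against 17.1%. The classes share the same pair of libraries, and this is the step at which the kit changed.

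**Figure D2:**
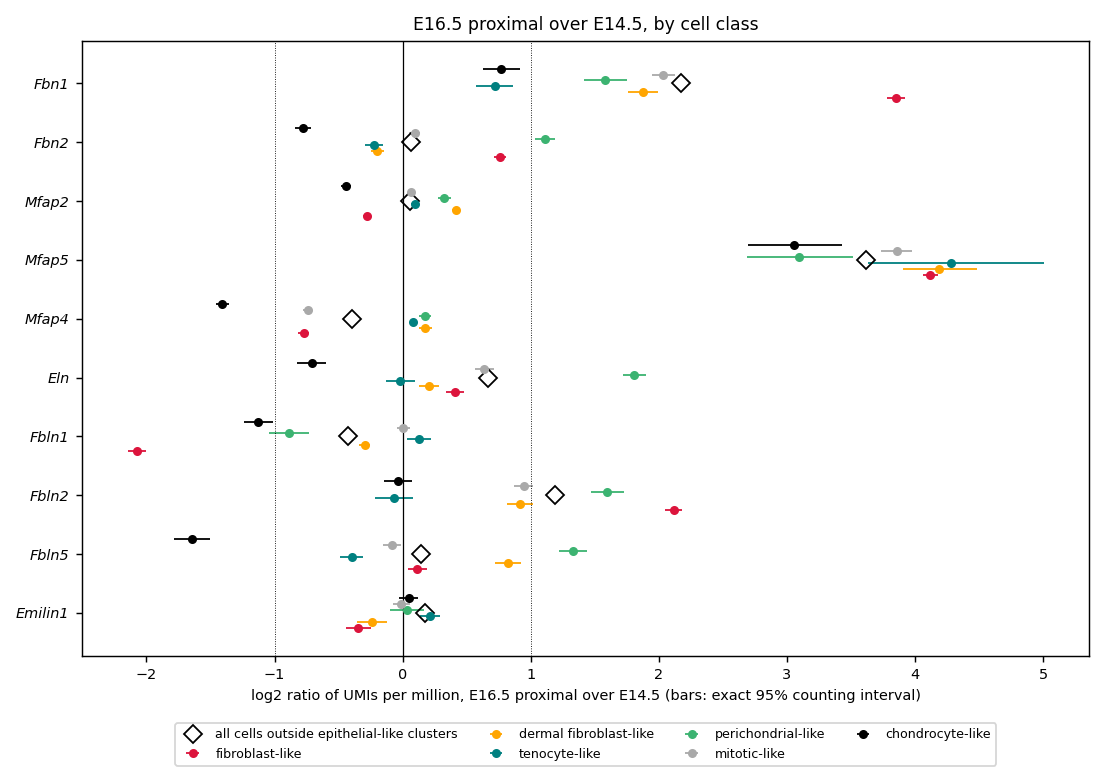
Log2 ratio of CPM between E16.5 proximal and E14.5 for each gene within 6 cell classes (coloured points with exact 95% counting intervals) and over all cells outside epithelial-like clusters (open diamonds), with dotted lines at 2-fold. *Mfap5* lies right of the 2-fold line in all 6, although its tenocyte-like level, 38.9 CPM, is close to that of the epithelial class, while *Fbln1* in fibroblast-like cells and *Fbln5*, *Mfap4* and *Fbln1* in chondrocyte-like cells lie left of the lower line.

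At E16.5 the genes were split between a few classes. Of 6 named classes with at least 50 cells in both segments, the class with the highest level was the same in both segments for 9 of 10 genes. The share of all genes for which this held was not computed, so the count cannot be read as particular to the 10 genes. It was lower with clusters at other resolutions, with classes from single cells and with thinned cells. For proximal *Mfap2* (1.01, 0.979 to 1.04) and distal *Fbln5* (1.07, 0.994 to 1.155) the highest class was not above the next beyond counting error. *Fbn1*, *Mfap5* and *Fbln2* were highest in fibroblast-like cells, *Mfap2*, *Mfap4* and *Emilin1* in tenocyte-like cells, *Fbn2* and *Fbln5* in perichondrial-like cells, and *Fbln1* in dermal fibroblast-like cells. *Eln* was highest in perichondrial-like cells of the proximal segment and fibroblast-like cells of the distal one. These names depended on how classes were made. With classes from single cells *Fbn2* was highest in fibroblast-like cells of both segments (575 and 812 CPM), *Eln* in proximal pericyte-like cells (359 CPM), and *Fbln5* in proximal fibroblast-like (197 CPM) and distal fibrogenic progenitor-like cells (214 CPM). *Mfap2* was highest in proximal perichondrial-like cells at resolution 2 (1444 CPM) and in thinned cells (1612 CPM). Different clusters held most fibroblast-like cells of the 2 segments: cluster 12 (561 proximal and 56 distal cells) and cluster 17 (24 and 525).

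The *Fbn1* level in fibroblast-like cells was 1276 CPM in the proximal and 1555 in the distal library, 5.27 times (5.04 to 5.50) and 4.26 times (4.08 to 4.45) the next class, and of the 6 classes tenocyte-like cells had the lowest levels, 96.6 and 135 CPM. *Mfap5* followed with 2116 and 1551 CPM in fibroblast-like cells, 420.4 and 431 in pericyte-like cells and 38.9 and 21.8 in tenocyte-like cells. Fibroblast-like cells were 5.75% of proximal cells and held 7.02% of all UMIs, but 33.2% of the *Fbn1* and 31.3% of the *Mfap5* UMIs. In the distal library they were 6.93% of cells and held 35.5% and 39.4%. Unnamed cells, 45.3% of proximal cells, held 34.3% of the *Fbn1* and 44.0% of the *Mfap5* UMIs there. In the distal library unnamed cells were 41.0% of cells and held 30.4% and 34.9%. The size of the lead depended on the clusters. At resolution 0.5 *Fbn1* in fibroblast-like cells was at 644 CPM proximally, with 244 in the next class, and at 668 CPM distally, with 429. *Mfap5* there was at 679 CPM distally, with 422 in the next class. *Fbln2* was highest in the same cells with 529 and 453 CPM, though the distal margin over perichondrial-like cells was 1.16 (1.11 to 1.21).

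Tenocyte-like cells led in a different set of genes. They held 1893 CPM of *Mfap4* in the proximal and 1191 in the distal library, against 1562 and 734 in perichondrial-like, 435 and 337 in fibroblast-like and 253 and 230.1 in pericyte-like cells, and 265 and 289.8 CPM of *Emilin1*, with 59.7 and 64.8 in pericyte-like cells. Chondrocyte-like cells, left out of these classes because the distal library held 42 of them, had 207 CPM of *Emilin1* proximally. With classes from single cells, *Emilin1* was at 260 CPM in distal tenocyte-like and 250 CPM in distal chondrocyte-like cells. *Mfap2* was spread more evenly. Its proximal levels in tenocyte-like and perichondrial-like cells, 1460.4 and 1446 CPM, did not differ beyond counting error (ratio 1.01, 0.979 to 1.04). The perichondrial-like lead of *Fbln5*, 403 CPM and 2.24 times the next class in the proximal library, was smaller in the distal library, with 195 against 181.8 CPM in tenocyte-like cells (1.07, 0.994 to 1.155). *Fbn2* was at 737 and 963 CPM in perichondrial-like cells, 1.15 and 1.24 times the next class. *Fbln1* stood at 464 and 373 CPM in dermal fibroblast-like cells.

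**Figure D3:**
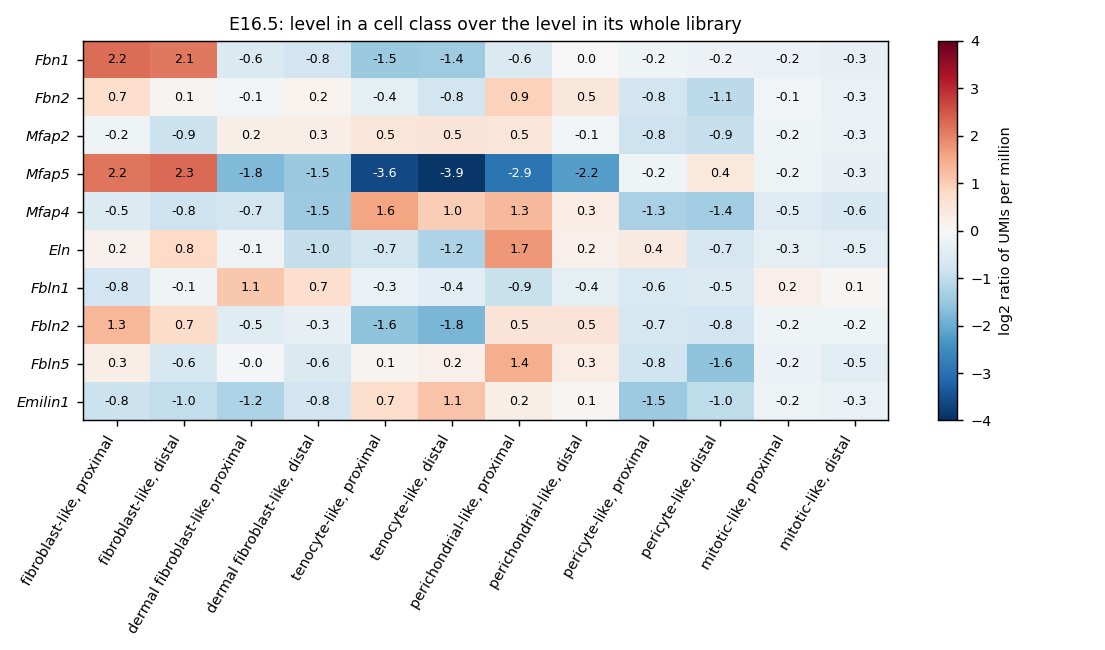
Level of each gene in 6 cell classes of the E16.5 proximal and distal libraries, as the log2 ratio to its level over all cells outside epithelial-like clusters of the same library (red above, blue below). *Fbn1* and *Mfap5* share the fibroblast-like maximum and the tenocyte-like minimum, and *Mfap4* and *Emilin1* are highest in tenocyte-like cells.

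Single clusters widened these ranges, including clusters that stayed unnamed. *Eln* reached 738 CPM in the proximal cluster 15 (205 cells, led by *Nell2* and *Igfbp2*), 538 CPM in the distal cluster 18 (1110 cells, led by *Grin2a* and *Nefm*) and 533.6 CPM in the proximal cells of cluster 9 (1306 cells, led by *Sfrp4* and *Prss12*), which also held 1011 CPM of *Mfap5*. In the proximal chondrocyte-like cluster *Eln* was at 64.9 CPM. *Fbln2* was at 585 and 558 CPM in the proximal and distal cells of dermal fibroblast-like cluster 10, led by *Gal* and *Sox2*, which held 37.5 and 49.7 CPM of *Mfap5*. Among dermal fibroblast-like clusters, *Mfap5* ran from 8.64 CPM in the proximal cells of cluster 20 (led by *Rspo1*) to 369 CPM in the distal cells of cluster 13 (led by *Ccl7* and *Dpep1*). *Fbn2* was highest, at 1110 CPM, in distal cluster 18.

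Likeness between genes was measured by the correlation of log2 levels across E16.5 clusters split by segment, with at least 50 cells each. These are descriptions over clusters that share 2 libraries and their depth. The 37 points included the proximal cells of both epithelial-like clusters, and the values were recomputed over the other 35. Over 37 points the 10 genes correlated with one another from r = −0.12 (*Mfap5* with *Fbln1*) to r = 0.84 (*Mfap2* with *Fbln5*), and over 35 points from r = −0.56 (*Fbln1* with *Emilin1*) to r = 0.78 (*Fbn1* with *Mfap5*). The pair of *Fbn1* and *Mfap5* had r = 0.74 with the epithelial-like points. *Eln* and *Fbln5* had r = 0.81 with these points and 0.65 without them, and *Mfap2* and *Fbln5* had 0.63 without them.

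The 3 genes most like each of the 10 were sought among 8022 genes with a mean of at least 10 CPM over 37 points and among 7972 over 35. Of the 30 places, 12 were held by a gene named in both searches. *Mfap5* had the same 3 in both, *Clec3b* (r = 0.97 over 37 points), *Col5a3* (0.95) and *Tnxb* (0.94). *Clec3b* is itself a fibroblast marker used for naming. For *Fbn1* the 3 were *Axl* (0.91), *Fstl1* (0.91) and *Cd55* (0.90) over 37 points and *Cd55* (0.93), *Tek* (0.92) and *Atf3* (0.91) over 35. *Cd55* is a leading gene of fibroblast-like cluster 17. For *Fbln1* they were *Tgfbr3* (0.85), *Tmem132c* (0.83) and *Crabp1* (0.81), of which *Tgfbr3* and *Tmem132c* were also named over 35 points (0.81 and 0.80).

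The other genes kept at most 2 of their 3. *Mfap4* was most like *Ltbp3* (0.85), *Angptl2* (0.83) and *Ccdc102a* (0.83) over 37 points, and *Gas6* took the place of *Angptl2* over 35 (0.81). *Fbn2* was most like *Fat4* (0.92), *Gxylt2* (0.92) and *Dab2* (0.91), with *Gxylt2* at 0.81 over 35 points, after *Heca* and *Nr4a1* (0.82 each). *Eln* was most like *Fstl1* (0.84), *Rnf145* (0.82) and *Ptprd* (0.82), but over 35 points it was most like *Anxa1* (0.84). *Fbln2* was most like *Scara3* (0.83), *Nrp2* (0.82) and *Fstl1* (0.80), with *Nrp2* first over 35 points (0.78), and *Fbln5* like *Zfp651* (0.88), *Samd14* (0.85) and *Nfatc4* (0.84), with *Mfap4* first over 35 points (0.72). *Mfap2* and *Emilin1* kept none. Over 37 points *Mfap2* was most like *Scarf2* (0.90), *Fndc4* (0.90) and *Maged1* (0.89), and over 35 it was most like *Sema3a* (0.66). *Emilin1* was most like *Cbx6* (0.91), *Bmyc* (0.90) and *Dpy19l1* (0.89), and over 35 points like *St3gal5* (0.90).

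The next question was whether the distal forelimb differed from the proximal at E16.5. The distal counts were made with Cell Ranger 6.0.1 and the proximal ones with 3.0.2. In comparisons with distal cells, the software version cannot be told apart from the segment or the stage. None of the 10 genes was past 2-fold over all cells outside epithelial-like clusters, against 9.44% of all genes. The largest ratio of distal to proximal was that of *Fbn2* at 1.79 (1.77 to 1.81), and it stood at 2.06 with epithelial-like cells kept. *Eln* (1.495, 1.48 to 1.52), *Fbn1* (1.34) and *Fbln2* (1.29) were also higher distally, and *Mfap5* (0.683, 0.676 to 0.690), *Emilin1* (0.805) and *Mfap2* (0.873) lower. *Fbln1* (1.07), *Fbln5* (1.06) and *Mfap4* (0.957) had the smallest differences. With epithelial-like cells kept, the log2 ratio of *Mfap2* was 0.00058 and that of *Mfap4* turned to 0.13. The segments differed in their cells: the chondrocyte-like share was 10.3% in the proximal and 0.501% in the distal library, and the dermal fibroblast-like share 11.4% and 22.1%. Without chondrocyte-like cells still none of the 10 was past 2-fold, and the log2 ratios of *Fbln1* and *Fbln5* turned to −0.013 and −0.027. The median log2 ratio was 0.09 over the 10 genes and 0.10 over all genes.

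Within classes some differences were larger, and for several genes they pointed in opposite directions. *Fbln1* had a ratio of 1.65 (1.55 to 1.75) in fibroblast-like and 0.804 (0.782 to 0.827) in dermal fibroblast-like cells. *Fbln5* had 1.14 (1.06 to 1.22) in tenocyte-like and 0.483 in perichondrial-like cells. No gene was 2-fold higher in a class and 2-fold lower in another. In fibroblast-like cells *Eln* was at 223 CPM in the proximal and 519 in the distal library (ratio 2.33, 2.23 to 2.43), while in perichondrial-like cells it was at 669.6 and 345 CPM (0.515, 0.486 to 0.546), and the difference between these ratios was not tested. The fibroblast-like comparison sets cluster 12 mainly against cluster 17. *Eln* was the 1 gene of the 10 at least 2-fold higher distally in that class, against 11.1% of all genes, and at resolution 0.5, with 421 and 513 CPM, its ratio was 1.22 and none was past the line. Dermal fibroblast-like cells also had 1, *Fbn2*, at 362 CPM in the proximal and 775 in the distal library (2.14, 2.08 to 2.20), against 7.01% of all genes, and cluster 21 of that class held 995 distal and 8 proximal cells. Perichondrial-like cells, all of cluster 19, had 1 gene 2-fold higher distally, *Fbn1* (2.02, 1.84 to 2.21), against 12% of all genes, and 2 lower, *Mfap4* (0.470, 0.452 to 0.489) and *Fbln5* (0.483, 0.447 to 0.522), against 7.69%. No gene was past 2-fold in tenocyte-like (8.8% of all genes), pericyte-like (10.2%) or mitotic-like cells (11.6%). Of the 10, *Fbn1* and *Fbn2* were higher distally in all 6 classes, as were 26.9% of 11268 genes, and *Mfap2* and *Mfap4* lower in all 6, as were 15.9%. The classes share the same pair of libraries, most of these ratios were under 2-fold, and with other clusters some turned: *Fbn1* in dermal fibroblast-like cells to 0.760 at resolution 2 and *Mfap4* in fibroblast-like cells to 1.05 at resolution 0.5. Over all cells *Mfap4* had a ratio of 0.957, and unnamed distal clusters 11, 18 and 23 held 982, 1020 and 924 CPM of it.

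**Figure D4:**
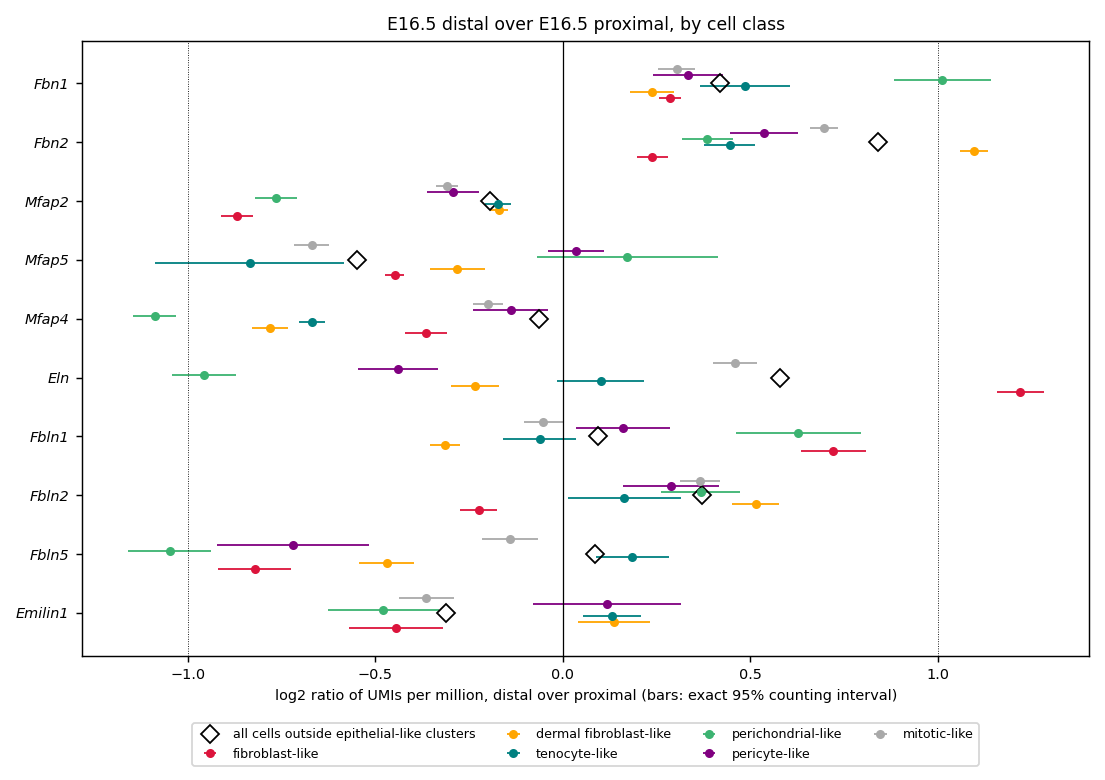
Log2 ratio of CPM between the E16.5 distal and proximal libraries for each gene within 6 cell classes (coloured points with exact 95% counting intervals) and over all cells outside epithelial-like clusters (open diamonds), with dotted lines at 2-fold. *Eln* is on opposite sides of 0 in fibroblast-like and perichondrial-like cells, and *Fbn2* in dermal fibroblast-like cells lies right of the 2-fold line.

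At E11.5 the sorted library could be tested against the 2 whole limb libraries, which asks how the labelled cells differ from the limb mesenchyme as a whole. edgeR's quasi-likelihood test was fitted to UMIs summed over mesenchymal cells of each library. It had 1 residual degree of freedom, the lone sorted library was taken to vary like the other libraries, and nothing in the sources says that the libraries labelled as replicates came from separate embryos, so that p-values measure only the spread between these samples. Of the 10 genes 4 passed a Benjamini-Hochberg adjusted p of 0.05, but so did 53% of 15122 genes, 26.7% higher and 26.4% lower. The share of the 10 genes called was thus near that of all genes.

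*Mfap4* was at 314 CPM in the sorted and at 154 and 146 in the whole limb libraries, a log2 fold change of 0.89 ± 0.10 (SE) with an edgeR adjusted p of 1.94e-18. *Fbln5* was at 28.3 against 12.6 and 14.2 CPM (0.90 ± 0.13, edgeR adjusted p = 3.55e-11). *Fbn2* was at 171 against 118 and 134 CPM (0.26 ± 0.10, edgeR adjusted p = 0.0147), and it did not pass with DESeq2 (adjusted p = 0.131) or without a filter on low counts (edgeR adjusted p = 0.226). *Fbln2* was the gene that was lower in sorted cells, with 24.3 against 39.8 and 43.1 CPM (−0.95 ± 0.12, edgeR adjusted p = 2.95e-13). The size of these p-values depended on the setting. Without a filter on low counts the edgeR adjusted p was 0.0153 for *Mfap4*, 0.0255 for *Fbln5* and 0.0202 for *Fbln2*. With the filter kept, it was also larger for these 3 genes in cells with at least 5000 UMIs. Over all alternatives with a test it stayed under 0.05 for them.

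The other 6 did not pass. *Eln* was at 5.74 against 3.77 and 4.06 CPM (0.37 ± 0.18, edgeR adjusted p = 0.0746), *Fbln1* at 168 against 171 and 174 CPM (−0.22 ± 0.10, edgeR adjusted p = 0.0538), and *Fbn1* at 11.7 against 8.01 and 9.21 CPM (0.27 ± 0.15, edgeR adjusted p = 0.127). *Mfap2* at 375 against 337 and 371 CPM and *Emilin1* at 73.3 against 64.3 and 69.5 CPM had log2 fold changes of −0.10 and −0.05. These signs depend on TMM scaling, since the unscaled log2 ratios of the sorted library to either whole limb library were 0.014 and 0.15 for *Mfap2* and 0.077 and 0.19 for *Emilin1*. For *Fbln1* the unscaled ratios were −0.048 and −0.030, smaller in size than its −0.22 with TMM scaling. *Mfap5* had 10, 8 and 5 UMIs. The comparison was repeated in cells with a UMI of *Meis1* or *Meis2* and none of *Hoxa13* or *Hoxd13*, a proximal match applied to all 3 libraries. There *Mfap4* and *Fbln5* had log2 fold changes of 0.49 each and *Fbln2* one of −0.83, all past the threshold, while *Fbn2* stood at 0.01 (edgeR adjusted p = 0.938) and *Eln* at −0.61 (edgeR adjusted p = 0.0591).

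**Figure D5:**
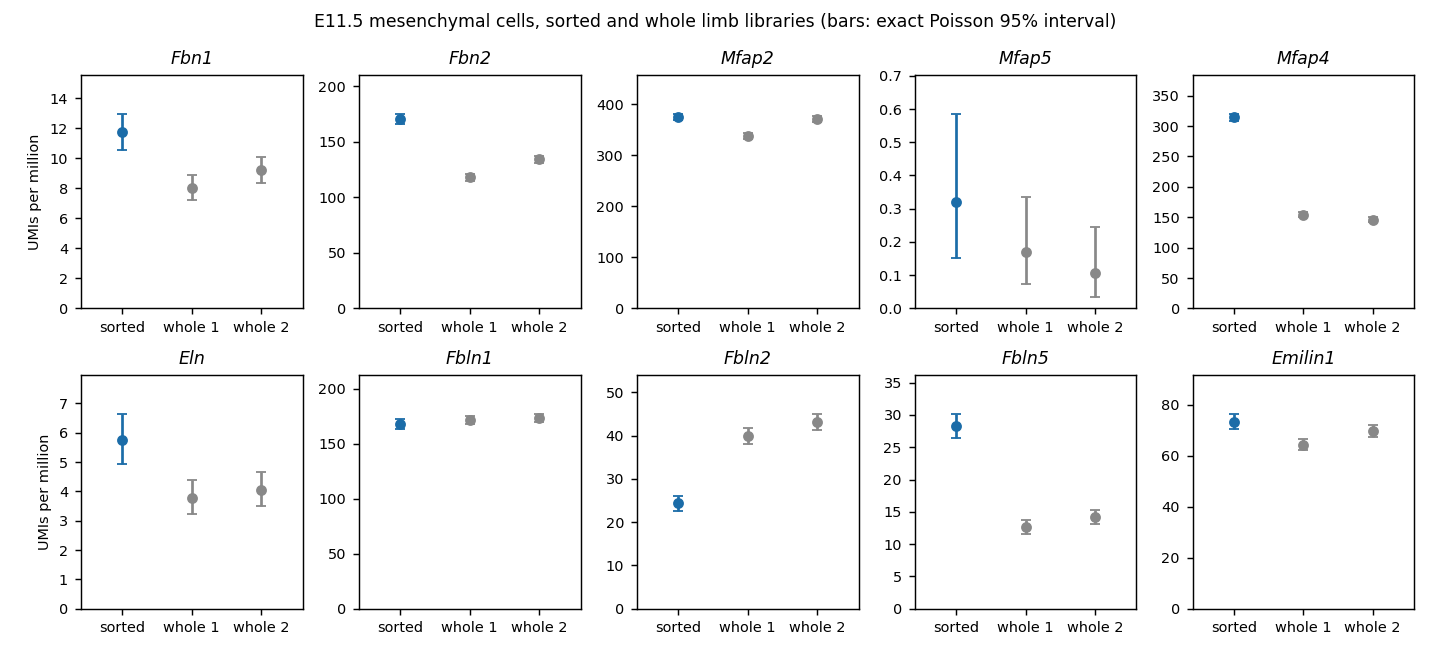
Level of each gene in mesenchymal cells of the E11.5 sorted library (blue) and the whole limb libraries (grey) in CPM, with exact Poisson 95% intervals and axes that start at 0. *Mfap4* and *Fbln5* are higher and *Fbln2* lower in the sorted library than in both whole limb libraries.

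A list of 34 related genes (latent TGF-beta binding proteins, lysyl oxidases, further fibulins and EMI domain proteins, microfibril-binding ADAMTS proteins, RGD-binding integrins, and other genes named MFAP) set the 10 in context. Of the 32 with a mean of at least 1 CPM, 19 were at least 2-fold higher at E16.5 proximal than at E11.5, against 15.3% of all genes, and 3 were lower, against 28.8%. Their median log2 ratio was 1.25. A gene can pass this filter through its E16.5 level alone, and between E11.5 and E12.5 the filter kept 26 of the list. Between E11.5 and E16.5 distal cells 20 of 31 were higher, against 17.8% of all genes, and 4 lower, against 26.5%. All 5 lysyl oxidases kept by the filter were higher in proximal cells, and with distal cells 3 of the 4 kept were. *Lox*, which cross-links elastin and collagen, was at 6.16 and 174 CPM (28.3, 24.5 to 32.7) and *Loxl1* at 23.0 and 97.0 CPM (4.22). Of 4 latent TGF-beta binding proteins 3 were higher, led by *Ltbp2* at 0.190 and 15.5 CPM (81.3, 37.3 to 222, from 6 UMIs at E11.5) and *Ltbp3* at 5.11 and 54.1 CPM (10.6).

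Fibulin relatives followed, with 3 of 4 higher. *Fbln7* was at 1.62 and 21.1 CPM (13.01, 9.88 to 17.5) and *Efemp1* at 5.17 and 43.7 CPM (8.44), while *Hmcn1* was at 48.4 and 29.6 CPM (0.613). Of the EMI domain genes *Emilin2* was at 16.6 and 98.7 CPM (5.96) and *Emilin3* at 3.52 and 10.0 CPM (2.84), and *Mmrn2*, an endothelial gene, was lower at 25.4 and 8.53 CPM (0.336). The ADAMTS group was mixed, with 3 of 8 higher and 1 lower. *Thsd4* was at 6.25 and 16.8 CPM (2.69) and *Adamtsl3* at 11.9 and 17.4 CPM (1.45). Of 6 integrin genes 2 were higher, among them *Itgb1* at 219 and 488 CPM (2.23), and *Itga8* stood at 1.67. *Mfap3*, named as a microfibril-associated protein, was lower at 59.7 and 19.2 CPM (0.321).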

How the data were processed

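Forelimb cells were profiled with 10x Genomics 3′ kits in 8 libraries. Each deposited matrix gives UMI counts, not normalized, by gene and barcode, which the authors made with Cell Ranger on a modified mm10 reference. Per the file headers, 5 sorted libraries used version 3.0.2 and E16.5 distal 6.0.1, and the whole limb headers name none. The 10 genes, the related genes and the marker lists were chosen with earlier results of these data known.

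A barcode was kept with 3000 or more UMIs, as in the study, and with no more than 10% of them mitochondrial. The study also removed cells rich in mitochondrial RNA, and the 10% value was chosen here. Kept cells held 31500092 (E11.5) to 234893903 (E16.5 proximal) UMIs per library. Leiden clusters at resolution 1 (2000 variable genes, 50 principal components, 25 neighbours; scanpy 1.11.5, igraph 0.11.9, Python 3.11.15) were made per stage without the 10 genes, the related genes, *Hic1*, transgenes, Hox, mitochondrial, haemoglobin, muscle fibre and sex-linked genes. A cluster took the name of the class, of 17, with the largest share of its markers raised (at least 3 markers, log2 fold of at least 1, detected in 10% of cells). Ties went to the higher mean log2 fold. A cluster stayed unnamed where leading genes belonged to another class. Clusters with 3 or more epithelial markers among 10 leading genes were counted as epithelial-like, a rule added after the clusters were seen. Doublets were kept, since scrublet's own threshold marked at most 0.126% of a library. UMIs were summed per library or class and scaled to CPM, with exact Poisson (CPM), conditional binomial (ratios) and Clopper-Pearson (shares) 95% intervals. With 1 library a group, "past 2-fold" means a ratio of at least 2 or at most 0.5 and no test. E11.5 sums were tested with edgeR 4.0.16 (R 4.3.3, TMM, filterByExpr), with DESeq2 1.42.0 as the alternative, and the edgeR step was tested on simulated data. The SE of an edgeR log2 fold change is its size divided by the square root of the F statistic. All 10 genes were named; related genes were named by the largest ratios per subgroup (mean of at least 5 CPM), and like genes by Pearson r of log2(CPM + 1). Counting intervals cover counting error only.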

Additional observations from a re-analysis of the deposited data

How the results depend on the processing

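With 1 library per stage and segment, every ratio compares libraries, and no p-value was given for them. The counts of genes past 2-fold were recomputed with epithelial-like cells kept, with cells thinned to 3000 UMIs, under TMM scaling, with a pseudocount of 1 CPM, with a mitochondrial limit of 5%, and with the highest doublet scores removed at 0.8% per 1000 cells, the last chosen after seeing the data because scrublet's threshold had not worked. No whole-library ratio past 2-fold changed direction. Ratios within classes were recomputed at resolutions 0.5 and 2, in thinned cells and with the highest doublet scores removed, also chosen after seeing the data, and 0 ratios past 2-fold turned. Of their counts, the distal over proximal count of fibroblast-like cells (1) was 0 at resolution 0.5 and 2 in thinned cells. That of dermal fibroblast-like cells (1) was 3 at resolution 2, with *Mfap5* (25.3 distal and 159 proximal CPM, 0.159) and *Mfap4* (0.324) lower distally. The E16.5 proximal over E14.5 count of mitotic-like cells (2) was 4 at resolution 2. Chondrocyte-like cells had 42 distal cells at resolution 1 and were not compared between segments there. At resolutions 0.5 and 2 they had 4 and 7 genes at least 2-fold higher distally and 0 lower, with no share of all genes computed. Pericyte-like cells at resolution 2 had 2 genes higher and 2 lower from E14.5 to E16.5 proximal, also with no share of all genes computed. The counts of these chondrocyte-like and pericyte-like cells can therefore not be read as particular to the 10 genes. Of 2 counts that moved by over 1.5 times, that from E12.5 to E13.5 was 1 with the pseudocount and that between E16.5 segments was 1 with epithelial-like cells kept. That between E11.5 and E16.5 proximal ran from 6 to 9, and *Fbn2* was at 1.99-fold in thinned cells. The filter on low values removed none of the 10 genes from these comparisons, so it bears on the background alone: without it, 57.4% of all genes were past 2-fold between E11.5 and E16.5 proximal. The class with the highest level was the same in both segments for 7 genes at resolution 0.5, 6 at resolution 2, and 8 with classes from single cells or with thinned cells. At resolutions 0.5 and 2 the highest distal level of *Fbln5* was in chondrocyte-like cells and that of *Fbln2* in perichondrial-like cells. These counts compare the segments and not the names of the classes: classes from single cells gave other classes for *Fbn2*, *Fbln5* and proximal *Eln*, and resolution 2 and thinned cells for proximal *Mfap2*. With E16.5 distal in place of proximal, chosen after seeing the data, the count against E11.5 was 7 and that against E14.5 was 4.

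At E11.5 the number of genes called was 3 to 5 over 7 alternatives, 3 of them with DESeq2, which called 4850 genes against 8022 by edgeR. Without a filter on low counts edgeR called 4476 in all, and in proximal-matched cells 4905. *Eln* passed with all filtered cells (0.47) and with at least 5000 UMIs per cell (0.50). Leaving out either whole limb library left 1 library against 1 and so gave CPM ratios with no test, on the log2 scale from 1.03 to 1.10 for *Mfap4*, 0.99 to 1.16 for *Fbln5*, 0.35 to 0.53 for *Fbn2* and −0.83 to −0.71 for *Fbln2*. Among genes that did not pass, those ratios turned the sign of *Mfap2* (0.014 to 0.15) and *Emilin1* (0.077 to 0.19), as did all filtered cells for *Emilin1* (0.021) and proximal-matched cells for *Fbn1* (−0.027) and *Eln* (−0.61). The correlations across E16.5 clusters without epithelial-like clusters were added after seeing the data. No paired analysis was possible because each sorted group was 1 pooled library.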
